A study of Mus musculus with 2 samples.

Results

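The cathepsin proteases were followed in mammary glands of adult mice in which Gata3, a transcription factor of the luminal epithelium, had been deleted. The genes Ctsa, Ctsb, Ctsc, Ctsd, Ctsf, Ctsh, Ctsk, Ctsl, Ctss and Ctsz were picked by symbol in the platform's gene table, with the ratios of Ctss, Ctsl and Ctsd in these data already known. Of the 10 genes, 9 had a feature there, and their 27 features were part of 38976 on the array. These 9 genes were part of 15056 genes with a symbol. Ctsh was not analysed here. Ctsd had 15 features, Ctsa, Ctsb, Ctsc and Ctsz had 2 each, and Ctsf, Ctsk, Ctsl and Ctss had 1 each. Because the choice rested on this same contrast, the cathepsin ratios below are a description, without a test.

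Null mice were GATA-3flox/flox; WAP-rtTA-Cre, with both Gata3 alleles floxed, and het mice were GATA-3flox/+; WAP-rtTA-Cre, with 1 floxed and 1 wild-type allele. Both genotypes thus carried the Cre transgene, both received doxycycline for 5 days, and neither is a wild type. The whey acidic protein (WAP) promoter is known for its activity in milk-producing epithelium, while the RNA came from whole glands, so that stroma, fat and immune cells contributed to every value. Each of 2 arrays held null RNA in Cy3 and het RNA in Cy5, with 0 arrays dye-exchanged, so a dye effect and a genotype effect cannot be told apart. Nothing in the labels says whether the arrays held different animals, and the spread between them may be technical.

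Each deposited value is the log ratio between the channels of an array, taken here as log2. Which channel was on top is not given in the labels. A positive ratio means more RNA in null than in het glands if Cy3 was divided by Cy5, and less in null than in het glands if Cy5 was divided by Cy3, so signs are given as deposited. Gata3, measured by 1 feature, had a ratio of 1.60 on array 1 but 0.21 on array 2, which does not settle the direction, since the place of the probe relative to the deleted part is not given. All features together had medians of -0.004 and -0.031 and SDs of 0.67 and 0.44 on arrays 1 and 2. Ratios carry no expression level, so neither the levels of the cathepsins nor the presence of the gland's cell types could be checked.

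Cathepsins are proteases of the endosome and lysosome. They are made as inactive proenzymes, and most are carried to the lysosome by mannose 6-phosphate receptors. They become active when the propeptide is cut off in the acid compartment. Most are cysteine proteases of the papain family, whereas Ctsd is an aspartic and Ctsa a serine protease. In the mammary gland they are known from involution after weaning, when the transcription factor STAT3 raises cathepsins B and L and lysosomes take part in the death of milk-secreting cells. Cathepsin S, in contrast, is best known from antigen-presenting cells, where it trims the invariant chain of class II molecules.

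The 250 bases upstream of the annotated start are shown for Ctsd and Ctsa, the genes with the most negative mean ratios, and for Ctss and Ctsl, those with the most positive ones. The sequences are from RefSeq, build GRCm38.p6. Capitals mark the E-box CACGTG in Ctsd, Ctsa and Ctsl and the spaced repeat GAAANNGAA in Ctss.
Ctsd, chr7:142387828-142388077, minus strand: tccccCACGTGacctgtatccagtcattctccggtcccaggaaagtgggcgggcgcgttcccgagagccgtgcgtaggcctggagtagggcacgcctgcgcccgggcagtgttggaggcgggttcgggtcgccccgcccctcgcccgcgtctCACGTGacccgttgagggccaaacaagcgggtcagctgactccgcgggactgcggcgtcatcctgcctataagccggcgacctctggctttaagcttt
Ctsa, chr2:164833523-164833772, plus strand: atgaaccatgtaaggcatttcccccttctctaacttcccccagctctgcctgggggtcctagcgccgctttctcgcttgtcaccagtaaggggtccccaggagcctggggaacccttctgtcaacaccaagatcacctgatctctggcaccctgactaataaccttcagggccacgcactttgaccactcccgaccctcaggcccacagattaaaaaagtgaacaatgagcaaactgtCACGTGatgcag
Ctss, chr3:95526536-95526785, plus strand: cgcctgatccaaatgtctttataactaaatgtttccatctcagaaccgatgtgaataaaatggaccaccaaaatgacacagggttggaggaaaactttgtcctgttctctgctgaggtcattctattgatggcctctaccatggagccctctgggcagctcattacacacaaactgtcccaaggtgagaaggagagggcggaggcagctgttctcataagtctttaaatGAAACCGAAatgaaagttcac
Ctsl, chr13:64370521-64370770, minus strand: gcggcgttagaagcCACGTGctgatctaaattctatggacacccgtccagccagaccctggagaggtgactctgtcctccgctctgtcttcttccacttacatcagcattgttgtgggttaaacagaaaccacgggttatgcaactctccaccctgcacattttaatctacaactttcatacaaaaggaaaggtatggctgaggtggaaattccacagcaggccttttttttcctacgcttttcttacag
A further Ctsa window, chr2:164832622-164832871, is not shown and holds no match to any motif searched.

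Of the measured cathepsins, 8 had such a window in the RefSeq table, in 9 windows, and Ctsb had none there. Motifs were searched as letters on both strands in these windows and in all 32851 windows of that length. CACGTG, the E-box bound by lysosomal regulators of the TFEB family among many other factors, was found in 4 of the 9 cathepsin windows. These were windows of Ctsd, Ctsa, Ctsf and Ctsl, and 6.02% of all windows held a match. Ctsd had matches beginning at -245 and -98, counted so that -1 is the base before the start. The longer palindrome TCACGTGA, which contains the E-box, was found in Ctsd at -99 and in Ctsa at -13, against 0.785% of all windows. GAAANNGAA, the repeat of interferon-response elements, was found in Ctss alone of these genes, at -21, and in 7.13% of all windows. AGATAA, a sequence bound by GATA factors, occurred in Ctsz at -56 and in 9.99% of all windows. TTCNNNGAA, the palindrome of STAT sites, occurred in Ctsc at -236 and in 7.02% of all windows. GGGCGG, the GC box, was present in Ctsc, Ctsd, Ctsf, Ctss and Ctsz and in 32.7% of all windows. The windows differed in base composition, with 67.2% G and C in Ctsd, 54.4% in the printed Ctsa window, 44.8% in Ctss and 47.2% in Ctsl, against a median of 52.4% over all windows. A match says only that the letters are present.

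The cathepsins did not share a direction. By the mean over features and arrays, 4 genes had positive ratios, in the order Ctss, Ctsl, Ctsc and Ctsk, and 5 had negative ones, in the order Ctsd, Ctsa, Ctsb, Ctsz and Ctsf from the most negative. Of the 9 genes, 4 were positive and 4 negative on both arrays, and Ctsf had opposite signs, where 33.7% of all genes were positive and 34.1% negative on both arrays. Of the 27 features, 4 were positive and 19 negative on both arrays, where 30.7% and 34.8% of all features were, and 13 of those 19 belonged to Ctsd. All these counts include Ctss, Ctsl and Ctsd, whose ratios led to the choice of the family.

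**Figure D1:**
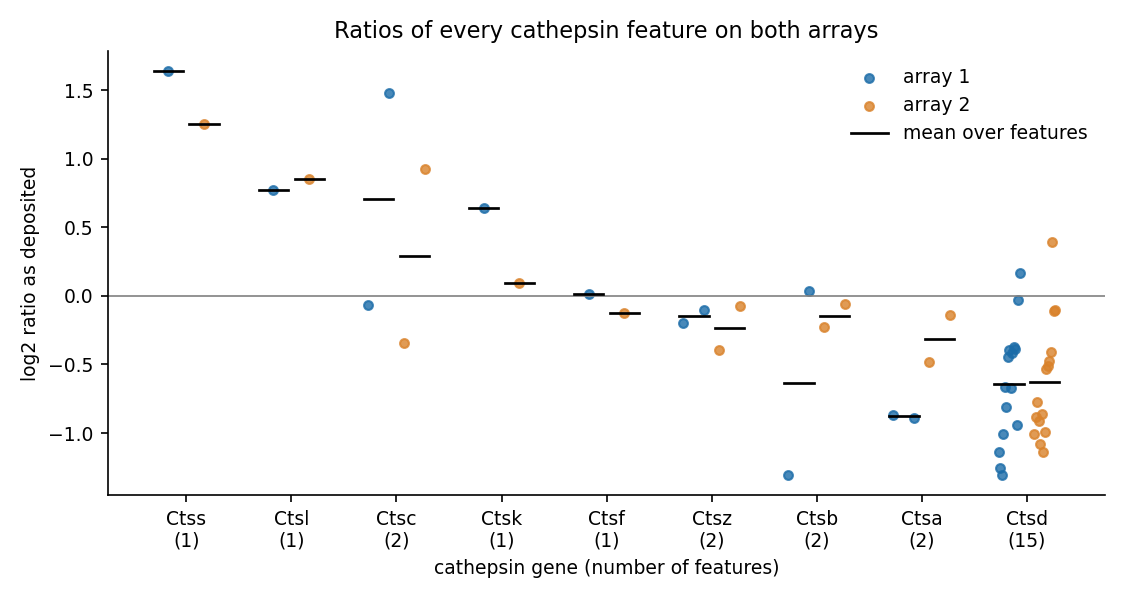
Log2 ratio as deposited (vertical axis) of each of the 27 cathepsin features on array 1 and array 2 (points), grouped by gene with the number of features in brackets. Short black lines are means over features, and genes run from Ctss, the most positive at 1.45, to Ctsd, the most negative at -0.64.

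Ctss, cathepsin S, had a ratio of 1.64 on array 1, and on array 2 it was 1.26. These correspond to 3.12-fold and 2.39-fold differences between the channels, in which genotype and dye cannot be told apart. The mean was 1.45 ± 0.27 (SD, n = 2 arrays), or 2.73-fold. It lay at percentile 98.1 of all genes on array 1 and 99.6 on array 2. It was the only cathepsin feature at least 2-fold positive on both arrays, where 2.14% of all features were.

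Ctsl, cathepsin L, a broad endopeptidase that also acts in the thymus and skin, gave 0.77 on array 1 and 0.85 on array 2. Its mean was 0.81 ± 0.06 (SD, n = 2 arrays), a 1.76-fold difference. It lay at percentile 88.1 of genes on array 1 and 94.8 on array 2. The lower of the Ctss ratios lay above both Ctsl ratios, so the order of Ctss over Ctsl held on each array.

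Genes of olfactory receptors, which serve smell in the nose, were set beside these positive ratios after the values were seen. Their 844 ratios had a median of 0.51 on array 1, with 0.42 on array 2, and 64.7% were positive on both arrays. Ratios at or above those of Ctsl on both arrays were found in 16.2% of them, against 4.01% of all genes. For Ctss these shares were 0.592% of the olfactory receptor genes and 0.126% of all genes. What lies behind the positive ratios of these receptor genes, and its part in those of Ctss and Ctsl, was not tested.

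Ctsc, cathepsin C or dipeptidyl peptidase I, activates the granule serine proteases of leukocytes. Its features went different ways. One had 1.48 on array 1 and 0.92 on array 2, and the other had -0.07 and -0.35. The gap between them, 1.54 on array 1 and 1.27 on array 2, was larger than in 91.6% and 96.5% of the 3598 genes with 2 features. Both features carry the same RefSeq accession in the platform's table, and the gene mean of 0.50 ± 0.30 (SD, n = 2 arrays) describes neither of them.

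Ctsk, cathepsin K, the collagen-cutting enzyme of osteoclasts, gave 0.64 on array 1 and 0.09 on array 2. The mean of 0.37 ± 0.39 (SD, n = 2 arrays) was no larger than its spread, and the array values of Ctsk overlapped with the gene means of Ctsc on the arrays. Ctsf, a cysteine cathepsin with an extended propeptide, was near 0 on both arrays, at 0.012 and -0.13.

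Ctsz, cathepsin Z, which removes single residues from the carboxy end, had features at -0.20 and -0.10 on array 1 and -0.40 and -0.07 on array 2. All values were negative and small, with a gene mean of -0.19 ± 0.06 (SD, n = 2 arrays). Ctsb, cathepsin B, a lysosomal protease known to increase in involution, had 1 feature at -1.30 on array 1 and -0.23 on array 2. The other Ctsb feature was at 0.035 and -0.06. The gene mean of -0.39 ± 0.35 (SD, n = 2 arrays) thus came mainly from 1 feature on array 1.

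Ctsa, cathepsin A or protective protein, holds lysosomal beta-galactosidase and neuraminidase in a stable complex. Its features had -0.87 and -0.89 on array 1 and -0.48 and -0.14 on array 2. They differed by 0.02 on array 1, a gap larger than in 2.53% of the genes with 2 features, whose median gap was 0.51. On array 2 the gap of 0.345 was larger than in 49.5% of these genes, with a median of 0.349. The gene mean was -0.59 ± 0.40 (SD, n = 2 arrays), a 1.51-fold difference.

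Ctsd, cathepsin D, is the main aspartic protease of the lysosome and is secreted by mammary epithelium. It had the most features of the family. Its 15 features ranged on array 1 between -1.31 and 0.17 with a median of -0.67, and on array 2 between -1.14 and 0.40 with a median of -0.77. Of them, 13 were negative on both arrays, and the other 2 had opposite signs. The means over features were -0.65 on array 1 and -0.63 on array 2, 1.56-fold and 1.54-fold differences. The SD of these means over the 2 arrays was 0.014. Single features varied more, with an SD of 0.43 over features on each array and SDs between arrays of up to 0.95. Ctsd lay at percentile 8.35 of all genes on array 1 and 2.84 on array 2.

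**Figure D2:**
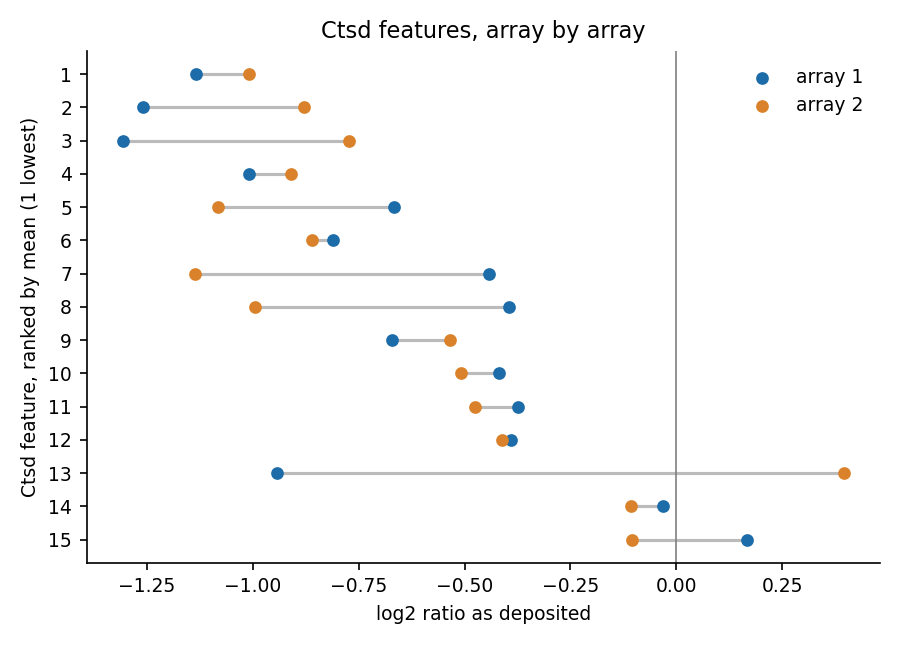
Log2 ratio as deposited (horizontal axis) of the 15 Ctsd features on array 1 and array 2 (points joined by a line), ranked by their mean. The 12 lowest features are negative on both arrays, and feature 13 has -0.94 on array 1 and 0.40 on array 2.

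The Ctsd features formed a spread without a single level. The lowest had -1.14 on array 1 and -1.01 on array 2, and it was the only cathepsin feature at least 2-fold negative on both arrays, where 0.254% of all features were. Mean ratios reached -0.5 or lower in 9 of the 15 features. The weakest were those at -0.03 and -0.11, and at 0.17 and -0.11, on arrays 1 and 2. Feature 13 was at -0.94 on array 1 and 0.40 on array 2, and it alone differed by more than 1 between arrays. Across the 15 features, array 1 and array 2 were related with Pearson's r = 0.36 and Spearman's rho = 0.42, a description of features that share a target gene and both hybridizations. All 15 carry 1 RefSeq accession, and the labels do not say whether they are repeats of 1 oligonucleotide or different ones. They lay in 11 of 48 equal runs of consecutive features. With the median of each run subtracted, a step added after the data were seen, the Ctsd mean was -0.62.

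**Figure D3:**
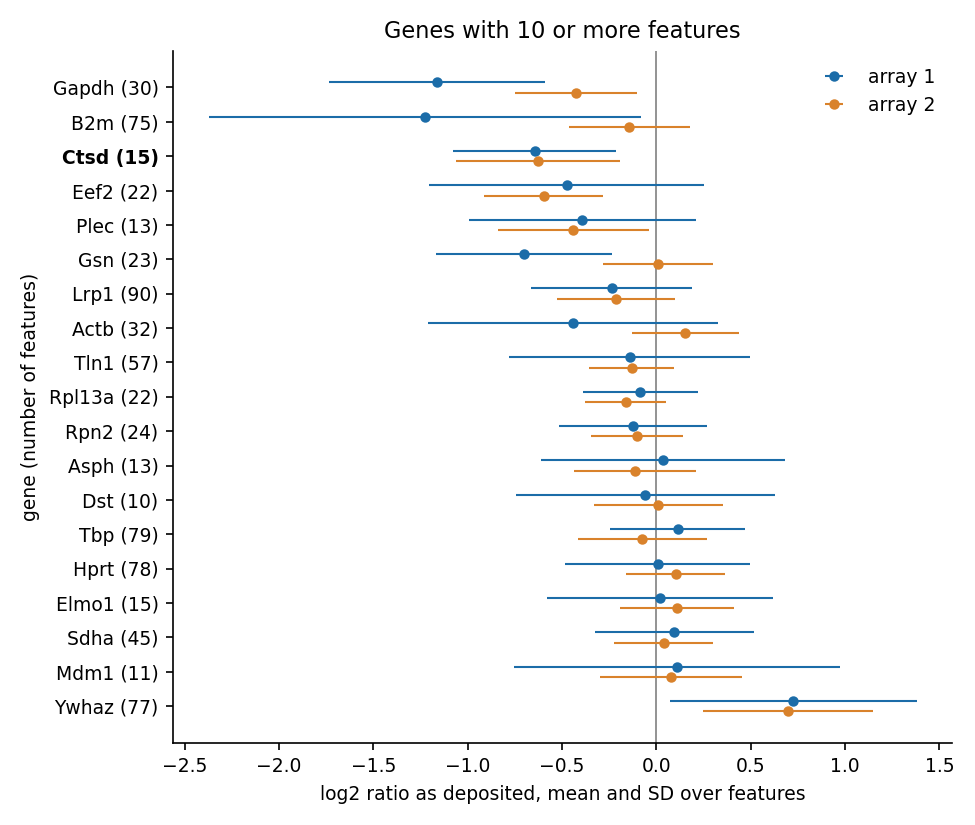
Mean log2 ratio as deposited with its SD over features (horizontal axis) for the 19 genes with 10 or more features, on array 1 and array 2. Ctsd, in bold, has nearly the same mean on both arrays, -0.65 and -0.63.

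Genes with 10 or more features offer a comparison among well-covered genes, although their numbers of features ran from 10 to 90, against 15 for Ctsd. There were 19 of them, Ctsd included. Ctsd had the lowest mean of all 19 on array 2 and stood at rank 4 from the lowest on array 1, after B2m, Gapdh and Gsn. Its SD over features, 0.43 on each array, compared with medians over the 19 genes of 0.60 on array 1 and 0.32 on array 2. Eef2, a translation elongation factor, lay nearest to Ctsd by the Euclidean distance between the mean ratios on the arrays, at 0.17, with means of -0.48 and -0.60. Plec, the cytolinker plectin, followed at a distance of 0.31, with -0.39 and -0.44. Next was Gapdh, a glycolytic enzyme, at 0.56, with -1.16 and -0.43. This likeness rests on 2 arrays.

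**Figure D4:**
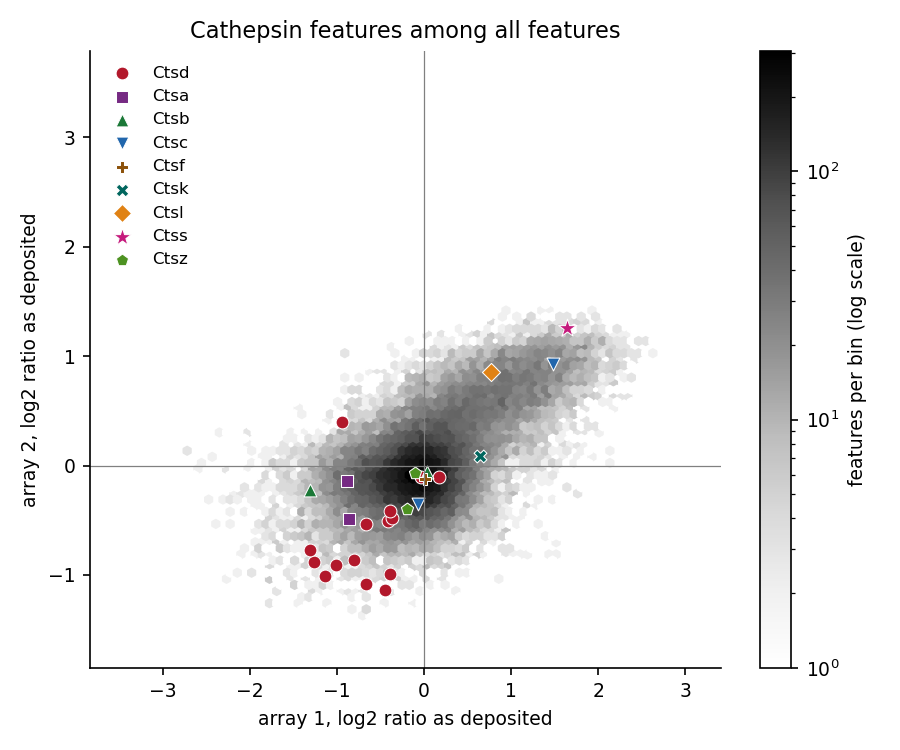
Log2 ratio as deposited on array 1 (horizontal) against array 2 (vertical) for all 38976 features (grey, number per bin on a log scale) and for the 27 cathepsin features (coloured symbols by gene). Ctss is at 1.64 and 1.26 in the upper right, and 13 Ctsd features are in the lower left.

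In the order of gene means, the ratios of Ctsd, Ctsa and Ctsb overlapped between arrays. Ctsd had -0.65 on array 1 and -0.63 on array 2, Ctsa -0.88 and -0.31, and Ctsb -0.63 and -0.14. These genes are therefore not separated by their spread between arrays. Within each array Ctsb was the least negative of them, narrowly on array 1, while Ctsd and Ctsa changed order between arrays. At the positive end, Ctss lay apart from Ctsl, while the Ctsc features lay on either side of Ctsl on both arrays.

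The proteins that act on or with cathepsins were counted by gene in lists of lysosomal and related genes. These were tested gene by gene with limma on the mean over a gene's features, adjusted over all 15056 genes. By that test 7.28% of all genes were called with positive and 0.983% with negative ratios. Negative calls, 148 as deposited, numbered between 191 and 514 under the other scalings. Positive calls, 1096 as deposited, rose there to between 1442 and 1877. Over single features 0 were called, where the lowest adjusted p was 0.0512 and 8559 features had an unadjusted p under 0.05. The lowest adjusted p over genes was 0.0336, so the calls by gene lie close to the threshold. Of the 844 olfactory receptor genes, 28.7% passed with positive ratios. Medians over all genes were 0.013 on array 1 and -0.014 on array 2, and 33.7% of all genes were positive and 34.1% negative on both arrays.

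Other cathepsins were measured for 10 of 13 listed genes, of which 0 passed in either direction. Their medians were 0.22 on array 1 and 0.012 on array 2, with 4 positive and 1 negative on both arrays. Ctso, a cysteine cathepsin found in many tissues, was closest to a call, with 1.35 on array 1 and 0.59 on array 2 (limma adjusted p = 0.0541). It passed under each of the other scalings tried, with an adjusted p between 0.0063 and 0.0290. Both Ctso features were positive, at means of 0.54 and 1.40. Ctsr, Cts3 and Cts6, which belong to a rodent group of placental cathepsins, had means of 0.73, 0.60 and 0.41, and Ctsr passed under 3 of the 4 other scalings.

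Cathepsin inhibitors, the cystatins, stefins and propeptide-like proteins, were measured for 12 of 19 genes. Of these 1 passed with a positive and 0 with a negative ratio, and the medians were 0.11 and 0.03. The gene that passed was Cst9, a cystatin family member known from the testis, with 1.04 on array 1 and 0.91 on array 2 (limma adjusted p = 0.0336). Cst3, cystatin C, the main secreted inhibitor of cysteine cathepsins, went the other way at -0.67 and -0.84 and did not pass (limma adjusted p = 0.0521). It passed with a negative ratio under each of the other scalings tried, with an adjusted p between 0.0145 and 0.0393. Csta2 had a mean of 0.38 and Cst11 of -0.37.

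Lysosomal hydrolases other than cathepsins were measured for 28 of 34 genes, and 0 passed. Medians of 0.06 and -0.011 lay close to those of all genes, with 11 positive and 9 negative on both arrays. Aga, which cleaves the sugar link of asparagine, had a mean of 0.92, Gusb, beta-glucuronidase, -0.64, Pla2g15, the lysosomal phospholipase, 0.64, and Sgsh, a heparan sulfate sulfatase, 0.61. The features of Sgsh disagreed, with means of -0.34 and 1.55. Aga passed under each of the other scalings tried, and Gusb, Pla2g15 and Sgsh passed after quantile normalization. Gusb and Pla2g15 also passed with arrays scaled to equal median absolute deviation.

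The sorting genes that bring cathepsins to the lysosome, 9 of 10 measured, had 0 members past the test and medians of 0.06 and -0.04. Igf2r, the large mannose 6-phosphate receptor, had 0.47 on array 1 and 0.61 on array 2. The means of Gga2, Gga1 and Gnptg were 0.27, -0.24 and -0.22, and that of Gga2 turned to -0.007 when the median over its 3 features was taken.

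Lysosomal membrane genes, all 14 measured, had 8 positive and 5 negative on both arrays and medians of 0.36 and 0.09. The only call, of 0 positive and 1 negative, was Ostm1, the partner subunit of the lysosomal chloride transporter, at -1.06 and -0.73 (limma adjusted p = 0.0399). Mcoln1, a cation channel of the lysosome, had a mean of 0.70, Npc1, the cholesterol exporter, 0.68, and Lamp2, a major membrane glycoprotein, 0.63. The features of Npc1 were at -0.01 and 1.37. Mcoln1 passed under each of the other scalings tried, and Npc1 and Lamp2 passed after quantile normalization. Lamp2 also passed with arrays scaled to equal median absolute deviation.

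The vacuolar ATPase acidifies the lysosome, which cathepsins need for activity. Of 19 measured genes of 22, 3 passed with positive and 0 with negative ratios, where 7.28% and 0.983% of all genes did. On both arrays 10 were positive and 4 negative, where 33.7% and 34.1% of all genes were. The medians were 0.21 on array 1 and 0.28 on array 2. Atp6v0d2, a membrane-sector subunit known from osteoclasts and macrophages, had 1.71 on array 1 and 1.15 on array 2 (limma adjusted p = 0.0336). Atp6v1h, a regulatory subunit of the catalytic sector, had 1.47 and 1.18 (limma adjusted p = 0.0336). Atp6v1c1, a subunit of the stalk, had 0.99 and 0.83 (limma adjusted p = 0.0367). Atp6v1a, the catalytic subunit, did not pass at a mean of 0.90, but passed under each of the other scalings tried.

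The MiT/TFE factors, which bind the E-boxes of lysosomal genes, were measured for all 4 genes. Tfec, the member found mainly in macrophages, passed at 1.47 on array 1 and 0.86 on array 2 (limma adjusted p = 0.0337), with 0 negative calls. Tfeb, the best known activator of lysosomal genes, was at -0.21 and -0.13, and Mitf had a mean of 0.45.

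**Figure D5:**
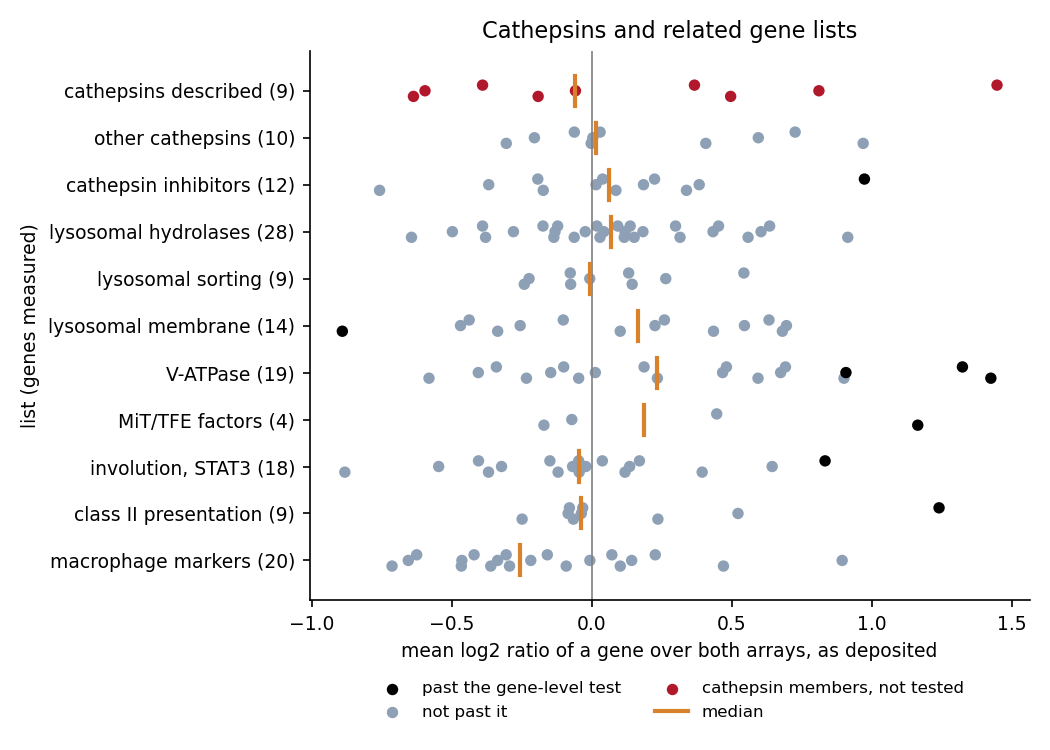
Mean log2 ratio as deposited over both arrays (horizontal axis) of each gene in the cathepsin family and in 10 related lists, with the number of genes measured in brackets and list medians as orange lines. Black points passed the gene-level limma test, and the vacuolar ATPase row holds 3 of them.

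Involution genes of the STAT3 pathway, 18 of 20 measured, had 1 positive and 0 negative calls. Their medians were -0.06 on array 1 and -0.03 on array 2, with 8 negative and 5 positive on both arrays. Osmr, the receptor of oncostatin M, passed at 1.02 and 0.65 (limma adjusted p = 0.0481), whereas its ligand Osm was at -0.75 and -0.34. The Osmr call was lost when all genes were summarised by the median of their features (limma adjusted p = 0.0579). Osmr has 1 feature, so its own ratio was the same there. Bcl3, a STAT3 target in the regressing gland, had a mean of -0.88 and Il6 of 0.65. Both passed under the other scalings tried, except with the median of each run subtracted. Ctsl and Ctsb, both tied to STAT3 in involution, had means of 0.81 and -0.39 in the same data.

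For class II antigen presentation, the pathway of Ctss, 9 of 11 genes were measured, and 1 passed with a positive and 0 with a negative ratio. H2-Aa, the alpha chain of a class II molecule, passed at a mean of 1.24 ± 0.36 (SD, n = 2 arrays; limma adjusted p = 0.0336). H2-Ab1, a class II gene of the same list, had -0.21 on array 1 and 0.05 on array 2. H2-DMb1, which helps to load peptides, had a mean of 0.52 and H2-Oa of 0.24. Cd74, the invariant chain that Ctss cuts, was at -0.12 and -0.38. The list medians of -0.04 and 0.03 were near 0.

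Macrophage markers had negative medians as a list, beside the positive ratio of Ctss. Of 20 measured of 24 genes, 12 were negative and 4 positive on both arrays, 0 passed in either direction, and the medians were -0.36 on array 1 and -0.13 on array 2. Adgre1, a surface receptor of mouse macrophages, had a positive mean of 0.90, and Laptm5, Itgam and Cd14 had -0.71, -0.65 and -0.62. Adgre1 and Laptm5 passed, with opposite signs, under each of the other scalings tried, and Itgam and Cd14 passed after quantile normalization. Csf1r and Cd68 were not analysed here. White adipocyte markers, 10 of 11 measured, had 6 negative and 2 positive on both arrays and medians of -0.62 and -0.08. Adipoq had a mean of -1.07, Car3 -0.96, Cd36 -0.75 and Lep 0.58. By array, Adipoq was at -1.74 on array 1 and -0.41 on array 2, Car3 at -1.77 and -0.15, and Cd36 at -1.22 and -0.28. Lep was at 0.495 and 0.66. Fibroblast markers, 10 of 11 measured, had 6 negative and 0 positive on both arrays and medians of -0.46 and -0.10. Col1a1 was at -1.79 on array 1 and -0.07 on array 2, and Fn1, Dcn and Mmp2 had means of -0.48, -0.43 and -0.34. In both lists 0 genes passed as deposited, while Adipoq and Lep passed after quantile normalization. Adipoq also passed with arrays scaled to equal median absolute deviation. The part of these cell types in the cathepsin ratios was not tested. Differences in the number of cells of a type and in RNA per cell cannot be told apart in whole glands.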

How the data were processed

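Null RNA (Cy3) and het RNA (Cy5) shared each spotted oligonucleotide array, and normalization by the authors was a print-tip lowess in Acuity 4.0, per the labels' design text. The authors' deposited ratios were read as log2 from their range. The sources used here give no log base, direction, centring, background correction or spot filter, and another base would rescale every fold. All 38976 features had values on both arrays, spot intensities were not used, and 0 value columns were left over. Precision is limited by the number of arrays.

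A single gene symbol was listed for 22973 features, several for 0 and none for 16003. All 22973 were matched by Entrez ID, for names, to the RefSeq gene table of GRCm38.p6. Ratios were tested against 0 with limma 3.58.1 (R 4.3.3; intercept alone, default prior, two-sided, Benjamini-Hochberg, threshold 0.05) over features and over gene means. The 2 arrays leave 1 residual degree of freedom, and the fitted prior added 5.32 in the feature fit, so calls rest on variance shared across features. The cathepsins and all lists were chosen with earlier results of these data known, and no test of the cathepsins is given. Named are all cathepsins, Gata3, the 3 genes with at least 10 features nearest to Ctsd and, per list, the genes past the test and up to 4 of one sign on both arrays with the largest absolute means. B2m, Gsn and H2-Ab1 were named after their values were seen. Alternatives were other scalings, priors, thresholds, summaries by median, a filter on disagreeing features and single arrays. Figures were drawn with matplotlib 3.10.9.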

Additional observations from a re-analysis of the deposited data

How the results depend on the processing

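By limma, 0 features passed as deposited, which became 2724 with each array's median subtracted, 5013 with arrays scaled to equal median absolute deviation, 5121 after quantile normalization, 4929 at an adjusted p of 0.1, and 7452 after dropping features with a gap between arrays of more than 1, a filter that removes the largest spreads by construction. It became 2518 with the median of each of 48 runs of features subtracted, a setting chosen after the data were seen, and stayed at 0 with a robust prior. The count of 1244 genes (1096 positive, 148 negative) became 1941 (1602 and 339) when spreads were made equal and 2391 (1877 and 514) under quantile normalization. It was 2113 (1729 and 384) at an adjusted p of 0.1 and 1793 (1548 and 245) with medians subtracted. With the median of each run subtracted it was 1633 (1442 and 191). Fewer genes passed with the median over a gene's features, 942 (847 and 95), and with a robust prior, 1183 (1049 and 134). Apart from the threshold and the filter, the cause of these changes was not tested. Of the cathepsins, 5 had negative mean ratios under every alternative that used both arrays, and 4 or 5 on single arrays. Ctsf ranged between -0.13 and 0.012 over single arrays, and its sign turned there. Ctsb was at -0.0125 when its feature with disagreeing arrays was left out, against -0.39 with both features. The mean of Ctsd ranged from -0.72 to -0.62 over the other settings. Among the list genes named in the text, which alone were rerun singly, Gga2 turned to -0.007 with the median over features. Osmr, Krt5 and Cd3g lost their call under the median over features, and Krt5 also with a robust prior. Each of these was measured by 1 feature, so its ratio stayed the same and only its adjusted p moved. Under some scaling, 22 of the named genes gained a call. Those that passed under each of the other scalings were Ctso, Cst3, Aga, Mcoln1, Atp6v1a, Adgre1, Laptm5 and Krt14. Most named genes were picked for large means of one sign on both arrays. Calls over all genes also rose under these scalings, from 1244 to between 1633 and 2391. A single array leaves no residual degree of freedom, so no test was possible on 1 array. Null and het RNA shared each array, so the test of the ratios against 0 was itself paired by array. The labels give the arrays no replicate numbers, and no further pairing was made.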

Other observations

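Epithelial and lymphocyte markers were measured in the same glands. Luminal markers, all 14 measured, had 7 negative and 3 positive on both arrays, with medians of -0.08 on array 1 and -0.02 on array 2, and 1 positive and 0 negative calls by limma over genes. Cd24a, a surface glycoprotein of luminal cells, passed at 1.22 and 0.91 (limma adjusted p = 0.0336), while the luminal keratins Krt8, Krt18 and Krt7 all had means of -0.62 and did not pass. Krt8 and Krt7 passed after quantile normalization. Basal markers, 9 of 10 measured, had 0 positive and 1 negative calls and medians of 0.018 and -0.10. Krt5 passed at -1.31 and -0.62 (limma adjusted p = 0.0494), and its partner keratin Krt14 stood at 1.10 and 0.51 without passing. Under each of the other scalings tried, Krt14 passed. Krt17 and Myh11 had means of -0.29 and -0.27.

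T cell markers, 5 of 8 measured, had 1 positive and 0 negative calls, and medians of -0.06 and 0.05. Cd3g passed at 1.11 and 0.68 (limma adjusted p = 0.0428), whereas Cd3e and Cd247, other chains of the same receptor complex, had means of -0.35 and -0.46. B cell markers, 4 of 6 measured, had 0 calls and medians of -0.34 and 0.06, with Cd79b at a mean of -0.37.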
